A study of Drosophila melanogaster with 8 samples.

Results

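Transcripts of at least 10000 nucleotides were examined in RNA immunoprecipitation sequencing (RIP-seq) of Drosophila melanogaster testes. Of the 30070 transcripts in the files, 578 had this length, and 210 of these also had a mean of at least 100 estimated reads over the 4 inputs. These 210 are called very long transcripts here, and are compared with the other 12314 transcripts that passed the same read filter, so that 1.68% of the 12524 transcripts tested were very long. In 3 input and pull-down pairs, flies of the genotype UAS-HOW-S-HA/nanos-GAL4 expressed the HA-tagged short isoform of Held Out Wings, HOW(S)-HA. The fourth pair came from nanos-GAL4/nanos-GAL4 flies, which carry the driver on both homologues and no tagged protein. Both lines were sampled as pooled reproductive tracts of young adult males, with anti-HA beads used on both lysates. The nanos-GAL4 driver is active in germline stem cells and early spermatogonia, whereas each lysate held all cells of the tissue, and the nanos-GAL4 line has 1 pair only and therefore no replicate. Nothing but the library number distinguishes the 3 HOW(S)-HA pairs in the labels, so p-values below measure the spread between these libraries.

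HOW is an RNA-binding protein of the STAR family, whose members bind short motifs, often in the untranslated regions of mRNAs, and regulate their stability, splicing and translation. In RIP-seq RNA recovered on an antibody is sequenced together with that of the starting lysate, and RNA that binds the beads or travels in large ribonucleoprotein particles is recovered together with direct targets of the tagged protein. Very long mRNAs in flies code for giant proteins of the cytoskeleton, the extracellular matrix and chromatin, and some isoforms owe their length to extended 3′ untranslated regions. The Drosophila testis is known for transcribing very long genes, among them axonemal dynein heavy chains, in spermatocytes.

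Libraries held between 9.13 and 24.0 M estimated reads, the smallest being the input of HOW(S)-HA pair 1. The transcript how-RB, used as a check of the labels, was at 0.457, 0.844 and 0.538 TPM (reads per unit of transcript length, scaled to the same total in every library) in the 3 HOW(S)-HA inputs, against 1.02 TPM in the nanos-GAL4 input. All how transcripts together were at 2.73 to 3.56 TPM in the HOW(S)-HA inputs, against 3.65 TPM with nanos-GAL4, so the transgene was not visible as a higher how level in the lysate. In the pull-downs how-RB was at 15.4, 7.17 and 2.19 TPM in HOW(S)-HA pairs 1, 2 and 3 and at 2.51 TPM with nanos-GAL4, so that pair 3 lay below the control in level. Relative to its own input, how-RB rose more in pair 3, from 0.538 to 2.19 TPM, than in the control, from 1.02 to 2.51 TPM. The files identify transcripts by FlyBase number only, and few of these could be paired with a gene, so markers of testis cell types were not checked.

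The very long transcripts had a median length of 12476 nucleotides and a maximum of 50529, against a median of 1960 for the others. The shortest member had 10039 nucleotides, and the longest transcript just under the limit had 9982. The member with the fewest reads had a mean of 100.047 in the inputs, and the long transcript next below the filter had 99.711. The remaining 368 transcripts of this length fell below the filter, and 91 of them had no read in any input. Thus 36.3% of all annotated transcripts of 10 kb or more entered the comparison, and the filter reads the inputs alone, so that it favours RNA present in the lysate. Reads behind each member were as many as for shorter transcripts, with a median mean input of 445 estimated reads against 416. Their assignment was less clear, since 25 members (11.9%) had whole-number read estimates in all 8 libraries, against 29.0% of the others. A fractional estimate arises where reads fit several isoforms and are divided between them. In at least 1 library, 38 members (18.1%) were listed at 0 reads, against 7.81% of the others, and 156 members had 10 or more reads in all 8.

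Very long transcripts were rare in the lysate of the testis. Their median level was 0.491, 0.681 and 0.738 TPM in the inputs of HOW(S)-HA pairs 1, 2 and 3 and 0.810 TPM in the nanos-GAL4 input. The other transcripts had medians of 4.03, 5.60, 5.38 and 6.54 TPM, which is between 7.29 and 8.23 times as high. TPM divides reads by length, so at an equal number of reads a longer transcript has a lower TPM, and the read filter admits longer transcripts down to lower TPM. In bulk tissue, fewer cells that hold an RNA and less of that RNA per cell cannot be told apart.

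Within the set, levels spanned a wide range. The mean over the 4 inputs ran from 0.0844 to 42.0 TPM with a median of 0.663. It was under 1 TPM for 133 members (63.3%), against 9.40% of the others. At the upper end 17 members had 5 TPM or more and 8 had 10 TPM or more. The 10 most abundant members held 45.0% of the summed TPM of all 210. The most abundant one, an 11469-nucleotide transcript, was at 24.4, 40.9 and 43.5 TPM in the 3 inputs of HOW(S)-HA and at 59.0 TPM with nanos-GAL4.

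In the pull-downs the very long transcripts took a larger part of the library. Their median level there was 2.82, 2.71 and 1.61 TPM in HOW(S)-HA pairs 1, 2 and 3 and 3.23 TPM in nanos-GAL4, so all 4 pull-down medians lay above all 4 input medians. The medians of the other transcripts were 9.11, 9.09, 6.53 and 10.2 TPM, between 3.15 and 4.06 times as high. The share of all estimated reads assigned to very long transcripts was 1.36%, 1.70% and 1.90% in the inputs of HOW(S)-HA pairs and 3.91%, 4.07% and 3.55% in their pull-downs. With nanos-GAL4 the share went from 1.81% in the input to 4.06% after pull-down. The increase was thus seen with and without the tagged protein, and while the read share of the nanos-GAL4 pull-down was between those of the HOW(S)-HA pull-downs, its median TPM was above all 3 of them.

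**Figure D1:**
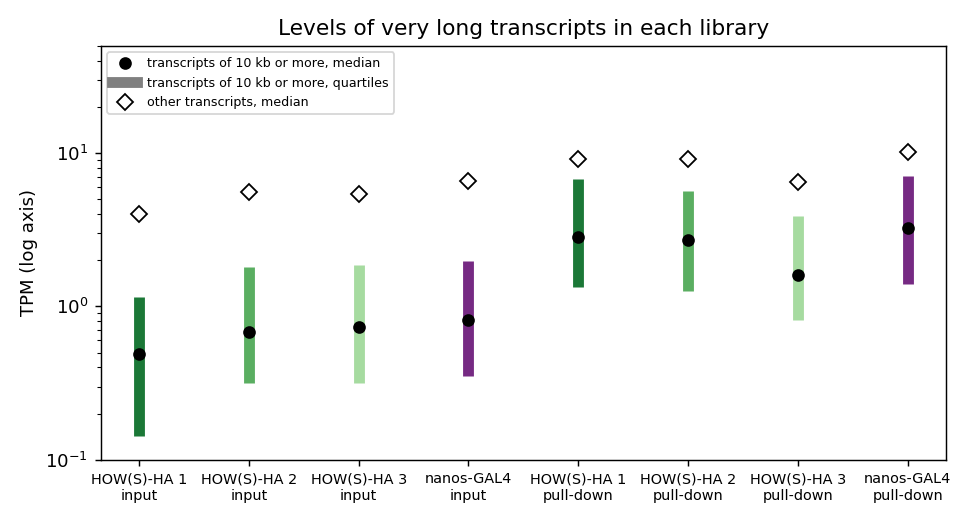
Level in TPM (log axis) of very long transcripts in each of the 8 libraries, with the median as a filled circle and the quartiles as a bar, and the median of the other transcripts as an open diamond. The medians of very long transcripts lie between 0.491 and 0.810 TPM in the inputs and between 1.61 and 3.23 TPM in the pull-downs.

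The comparison of pull-down with input asked how strongly RNAs of this length were retained on the beads in each pair. The log2 ratio of pull-down to input TPM, computed after adding 0.01 TPM to both, had a median over the very long transcripts of 2.81 in HOW(S)-HA pair 1. In pairs 2 and 3 it was 1.77 and 1.07, and in the nanos-GAL4 pair it was 1.82. For the other transcripts the medians were 1.15, 0.66, 0.23 and 0.63 in the same order. The difference between the sets was 1.66, 1.11 and 0.84 in HOW(S)-HA pairs 1, 2 and 3, which is 3.15-, 2.16- and 1.79-fold. Its mean was 1.20 ± 0.418 (SD, n = 3) on the log2 scale, or 2.30-fold. In the nanos-GAL4 pair the difference was 1.19, or 2.29-fold, and fell between those of HOW(S)-HA pairs 2 and 1. The size depends on the pseudocount, and with 0.5 TPM the differences were 0.72, 0.61 and 0.48 in HOW(S)-HA pairs 1, 2 and 3 and 0.73 with nanos-GAL4. With no read filter they were 1.09, 0.86, 0.55 and 0.83.

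Most members shared in the shift. Between 179 and 188 of 210 had a ratio above the median of all tested transcripts in any one pair, where 50% of all transcripts lie by construction. All 3 HOW(S)-HA pairs were above the median for 155 members (73.8%), against 28.1% of all tested transcripts. All 4 pairs were above it for 149 members (71.0%), against 24.9%, and below it for 5 members, against 24.7%. A ratio at least 1 log2 unit above the median in all 4 pairs was found for 50 members (23.8%), against 2.38% of all transcripts. For the 3 HOW(S)-HA pairs without the control the count was 54 (25.7%), against 2.87%. In the nanos-GAL4 pair alone 115 members (54.8%) reached that distance, against 9.84%, and 13 (6.19%) were as far below the median, against 5.91%. Regarding TPM itself, the 3 HOW(S)-HA pull-downs lay above all 3 inputs for 172 members (81.9%), against 54.5% of all transcripts, and below all 3 inputs for 3 members, against 1.40%.

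**Figure D2:**
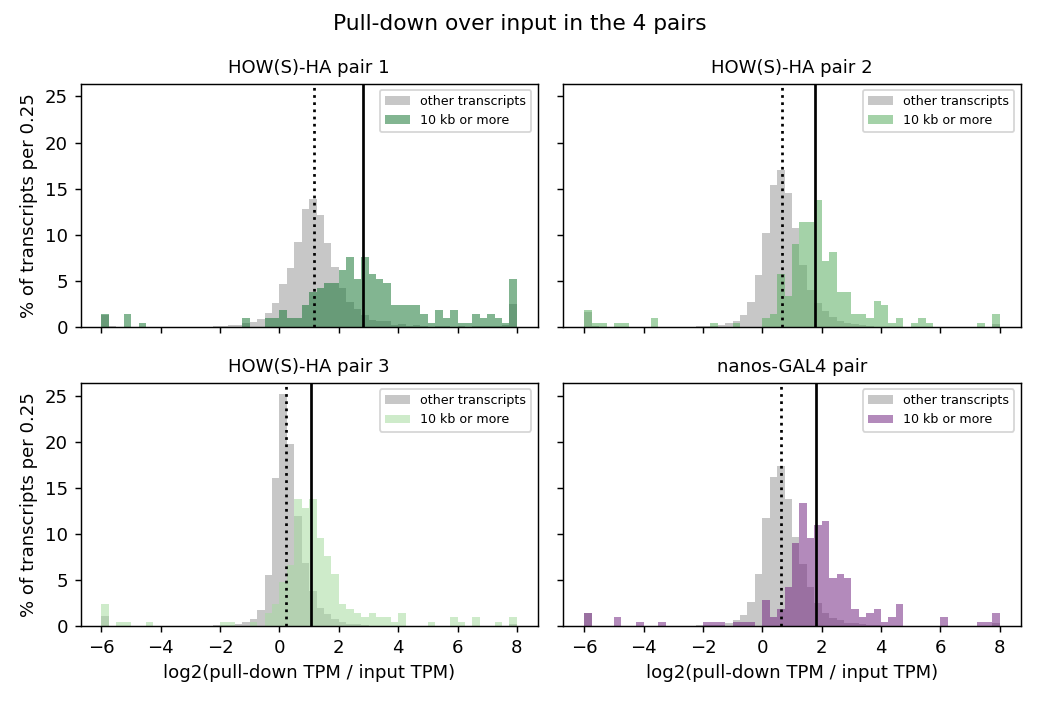
Distribution of the log2 ratio of pull-down to input TPM in each pair, as the percentage of transcripts per 0.25 log2 units, for very long transcripts (coloured) and the other transcripts (grey), with values beyond the axis counted in the outermost bars. Solid lines mark the medians of very long transcripts, 2.81, 1.77, 1.07 and 1.82, and dotted lines those of the others, 1.15, 0.66, 0.23 and 0.63.

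The spread among members was wide, and it was narrower among members with 10 or more reads in all 8 libraries. What lay behind the spread was not tested. The standard deviation of the log2 ratio over the 210 members was 2.67 in HOW(S)-HA pair 1 and between 1.98 and 2.08 in the other pairs. Among the 156 members with 10 or more reads in all libraries it was 1.26 in pair 1 and between 1.02 and 1.05 in the others. In the input of pair 1, the shallowest library, 22 members were listed at 0, against 5 to 8 in each other library. With the read minimum applied to both sets, the difference between very long and other transcripts was 1.47, 1.20 and 0.87 in HOW(S)-HA pairs 1, 2 and 3 and 1.22 with nanos-GAL4. Of these 156 members, 129 (82.7%) were above the median in all 4 pairs, against 25.1% of the others under the same minimum. The minimum also applies to the pull-downs, so it leaves out members that were lost there.

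Part of the difference between pairs lay in single libraries. Each library was set against the mean of the other libraries of its kind. The input of HOW(S)-HA pair 1 then had very long transcripts at -0.24 log2 units compared with the other transcripts, and the pull-down of pair 3 had them at -0.17. The remaining 6 libraries deviated by values from 0.01 to 0.19. The pair with the largest difference therefore had the lowest input, and the pair with the smallest difference had the lowest pull-down and a high input. The part of depth in this order was not tested.

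Longer transcripts had higher ratios throughout, not only above 10 kb. For the 2352 tested transcripts under 1000 nucleotides the median log2 ratio was 0.66, 0.29 and 0.05 in HOW(S)-HA pairs 1, 2 and 3 and 0.26 with nanos-GAL4. For the 1212 transcripts of 5000 to under 10000 nucleotides it was 1.86, 1.21, 0.60 and 1.19. Among the very long transcripts, the 92 of 10000 to under 12000 nucleotides had medians of 2.32, 1.62, 0.94 and 1.57. The 63 of 15000 nucleotides or more had medians of 3.27, 1.94, 1.23 and 2.07. Each of the 7 length classes had a higher median than the class below it in all 4 pairs, so the limit of 10 kb marks no step in these data. Among transcripts with whole-number reads in all libraries the top class was an exception, as the 4 members of 15000 nucleotides or more had lower medians in all 4 pairs than the 12 members of 12000 to under 15000, with 2.79 against 3.02 in HOW(S)-HA pair 1 and 1.99 against 2.46 with nanos-GAL4. Members share libraries and TPM estimates. Over all 210, the Spearman correlation of length with the ratio was 0.21, 0.21, 0.20 and 0.27 in the 4 pairs. Over the 156 with 10 or more reads in all libraries it was higher, at 0.34, 0.36, 0.30 and 0.40.

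**Figure D3:**
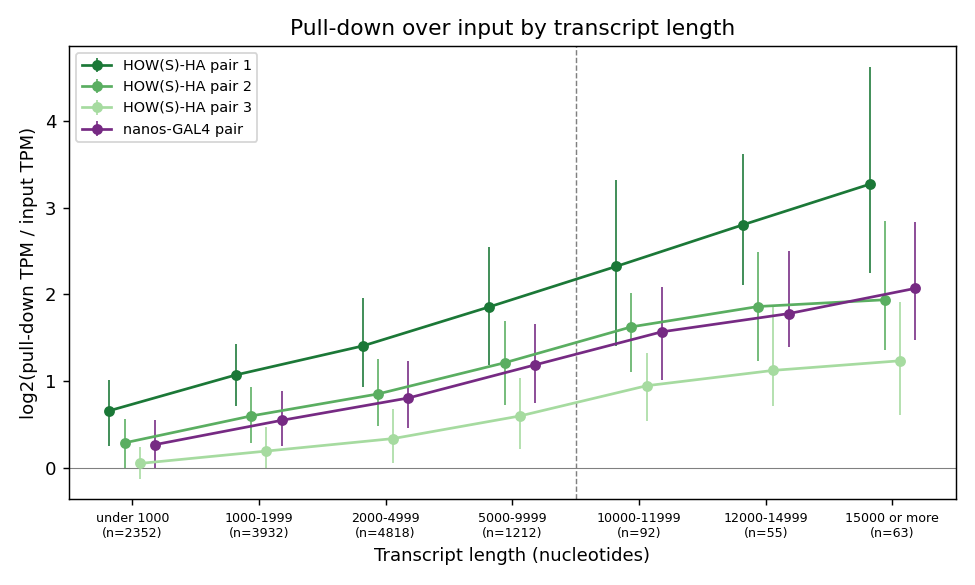
Median log2 ratio of pull-down to input TPM by class of transcript length in nucleotides, for each pair, with bars for the quartiles and the number of transcripts under each class. The classes to the right of the dashed line are the very long transcripts, and the medians rise from 0.05 to 0.66 under 1000 nucleotides to between 1.23 and 3.27 at 15000 nucleotides or more.

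Very long transcripts are of low TPM, and rare transcripts had higher ratios, so both were considered together. Between 1 and 2 TPM, the 34 very long transcripts had median ratios of 2.68, 1.59, 0.88 and 1.67 in HOW(S)-HA pairs 1, 2 and 3 and nanos-GAL4. The 1505 transcripts under 5000 nucleotides of the same level had medians of 1.37, 0.91, 0.36 and 0.76. At 10 TPM or more the 8 very long transcripts had medians of 2.46, 1.58, 0.83 and 1.74, against 0.93, 0.44, 0.13 and 0.49 for the 4304 transcripts under 5000 nucleotides. Between 0.5 and 1 TPM the gap was small, with medians of 2.09, 1.66, 0.80 and 1.55 for 47 very long transcripts and 1.98, 1.31, 0.72 and 1.29 for 328 transcripts of 5000 to under 10000 nucleotides. In all 6 level classes from 0.25 TPM upwards the median of very long transcripts was above that of both shorter sets in each pair.

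Read counts of single transcripts were tested with edgeR's quasi-likelihood F-test over all 12524 transcripts, with pull-down against input and pair as factors. With p adjusted by Benjamini-Hochberg and a limit of 0.05, and a log2(fold change) of at least 1 in either direction, no very long transcript was called (0% of all transcripts in both directions), and the smallest adjusted p was 0.0763. At an unadjusted p under 0.05 with the same fold, 84 members (40.0%) were higher in the pull-down, against 5.15% of all transcripts, and 4 (1.90%) were lower, against 1.88%. Without pair 1 the members lower were 9 (4.29%), against 2.18%. The adjusted calls depended on the test. DESeq2 called 95 members (45.2%) higher, against 5.97% of all transcripts, limma-voom called 64 (30.5%), against 3.77%, and edgeR without the pair as a replicate block called 62 (29.5%), against 3.45%. With the scaledTPM counts of the study's methods edgeR called 4 members (1.90%) higher, against 0.391% of all transcripts, and 0 lower, against 0.00798%. With those counts and the filterByExpr filter, which the methods use with them, 187 members and 16937 transcripts were tested and 0 were called. That fit was not a repeat of the study's own. Here counts were rounded, filtered and scaled over all 8 libraries, and the edgeR version was later. The study reports enriched transcripts from its own fit, after subtracting those enriched with nanos-GAL4, and the member Hipk-RA is among them. It also measured binding of the recombinant STAR domain of HOW to short RNAs with sites from Hipk-RA. Lower in the pull-down were 4, 1 and 2 members by DESeq2, limma-voom and edgeR without the block, with 2.56%, 0.591% and 0.679% of all transcripts. By the edgeR fit, which is scaled so that most transcripts lie near 0, the median log2(fold change) was 1.23 for very long transcripts and -0.02 for the others, and 125 members (59.5%) had a value of 1 or more, against 8.20% of the others. The standard errors given here and below for edgeR are approximate. Each is the size of the log2(fold change) divided by the square root of its F statistic. The median standard error was 0.323 for members and 0.196 for the others.

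The comparison of the lines asked whether very long transcripts were retained differently with HOW(S)-HA. Each ratio was taken relative to the median of all transcripts of its pair. The mean of the 3 HOW(S)-HA pairs minus the nanos-GAL4 value then had a median of -0.02 over the 210 members, with quartiles of -0.34 and 0.39. The nanos-GAL4 value fell between the lowest and highest of the 3 HOW(S)-HA values for 136 members (64.8%), against 55.6% of the others. It lay above all 3 for 50 members (23.8%), against 23.4% of the others, and below all 3 for 24 (11.4%), against 21.0%. In the edgeR test of the difference between the lines (interaction), no transcript was called, and the smallest adjusted p was 0.246. An unadjusted p under 0.05 was found for 4 members with the higher ratio in HOW(S)-HA, against 1.42% of all transcripts, and for 5 with the lower ratio, against 1.13%. Without HOW(S)-HA pair 1 these counts were 12 (5.71%) in each direction, against 3.13% and 2.69% of all transcripts. DESeq2 called 3 members in each direction, against 0.846% and 0.759% of all transcripts, limma-voom called none (0% of all transcripts), and edgeR without the replicate block called 1 member higher and none lower, against 0.0878% and 0.0559% of all transcripts. With 1 nanos-GAL4 pair, these tests take their spread from the HOW(S)-HA pairs.

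The order of members with 10 or more reads in all libraries was alike in both lines. This is a description over transcripts that share depth and TPM estimates within each library. Over the 156 members with 10 or more reads in all libraries, the HOW(S)-HA mean and the nanos-GAL4 ratio correlated at 0.84 (Pearson) and 0.67 (Spearman). HOW(S)-HA pair 2 correlated with nanos-GAL4 at 0.87, and with HOW(S)-HA pairs 1 and 3 at 0.65 and 0.81 (Pearson). Pairs 1 and 3 correlated with nanos-GAL4 at 0.55 and 0.83 (Pearson). Over all 210 members the correlation of HOW(S)-HA mean with nanos-GAL4 was 0.39 (Pearson) and 0.52 (Spearman), against 0.38 and 0.62 over the other transcripts.

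**Figure D4:**
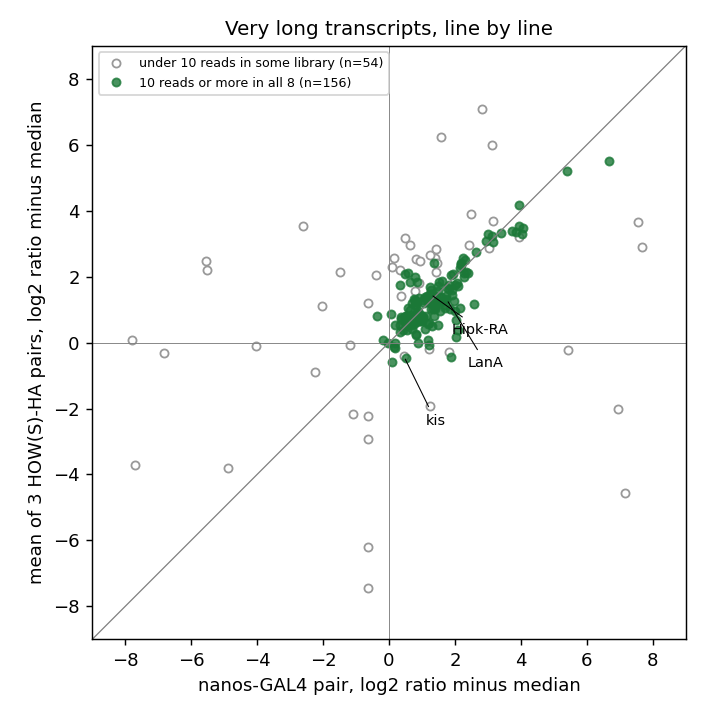
Log2 ratio of pull-down to input TPM of each very long transcript, relative to the median of all tested transcripts, as the mean of the 3 HOW(S)-HA pairs (vertical) against the nanos-GAL4 pair (horizontal), with the line of equal values. Filled points are the 156 members with 10 or more reads in all 8 libraries and lie along the line, and open points are the 54 with fewer reads in some library.

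Names could be given to 3 of the 210 members, and these are described one by one. Hipk-RA codes for a homeodomain-interacting protein kinase, a nuclear kinase that promotes several signalling pathways in the fly. The gene Hipk lies on chromosome arm 3L at 543060 to 581099 of the Release 6 assembly, and this transcript has 11261 nucleotides. It was at 0.900, 0.961 and 0.951 TPM in the 3 inputs of HOW(S)-HA and at 3.43, 5.08 and 4.36 TPM in the pull-downs. With nanos-GAL4 it went from 1.03 to 3.83 TPM. All 4 pull-downs lay above all 4 inputs, and the nanos-GAL4 pull-down lay within the range of the other 3. The log2 ratios were 1.92, 2.39, 2.19 and 1.89, against medians of 2.32, 1.62, 0.94 and 1.57 for members of 10000 to under 12000 nucleotides, so Hipk-RA lay below its length class in HOW(S)-HA pair 1 and above it in the other pairs. The edgeR log2(fold change) was 1.48 ± 0.288 (SE, n = 3 pairs; adjusted p = 0.121), the adjusted p being 5.53e-06 by DESeq2, 0.0388 by limma-voom and 0.0236 by edgeR without the replicate block, and the difference between lines was 0.28 ± 0.562 (SE; adjusted p = 1). Among the 210 members Hipk-RA ranked 80 by input level and 76 by the mean HOW(S)-HA ratio.

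LanA codes for a laminin alpha chain, a large protein of basement membranes. The gene LanA lies on 3L at 6203831 to 6218022, with a single RefSeq transcript, and the member FBtr0077014 has 11690 nucleotides. Its read estimates were whole numbers in all libraries, so that its reads were not divided among isoforms. It was at 0.780, 1.30 and 1.08 TPM in the 3 inputs of HOW(S)-HA and at 4.59, 6.41 and 2.54 TPM in the pull-downs. With nanos-GAL4 it was at 1.64 and 8.56 TPM. Input and pull-down did not overlap, and the nanos-GAL4 pull-down was the highest of the 4. The log2 ratios of 2.54, 2.29, 1.23 and 2.38 lay above the median of the length class in all 4 pairs. The edgeR log2(fold change) of LanA was 1.32 ± 0.172 (SE, n = 3 pairs; adjusted p = 0.0967), with an adjusted p of 1.56e-11 by DESeq2, 0.0263 by limma-voom and 0.0294 by edgeR without the block, and the difference between lines was -0.35 ± 0.337 (SE; adjusted p = 1).

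The gene kis codes for Kismet, a chromatin remodelling protein of the CHD family, and lies on chromosome arm 2L at 210735 to 250823. RefSeq lists 6 transcripts for it. The member FBtr0078144, of 17943 nucleotides, was at 1.57 and 2.30 TPM in the inputs of HOW(S)-HA pairs 2 and 3 and at 2.95 and 2.23 TPM in their pull-downs. With nanos-GAL4 the level went from 2.18 to 4.64 TPM. In pair 1 it had 0.003 reads in both libraries. Counting this member, 10 tested transcripts were missing in this way from pair 1 alone. For kis the ratios of pairs 2, 3 and nanos-GAL4 were 0.91, -0.05 and 1.09, all under the medians of 1.94, 1.23 and 2.07 of members of 15000 nucleotides or more. The edgeR log2(fold change) was -0.05 ± 0.213 (SE; adjusted p = 0.905), which rests on pairs 2 and 3. Without pair 3 it was 0.22, which rests on pair 2 alone.

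**Figure D5:**
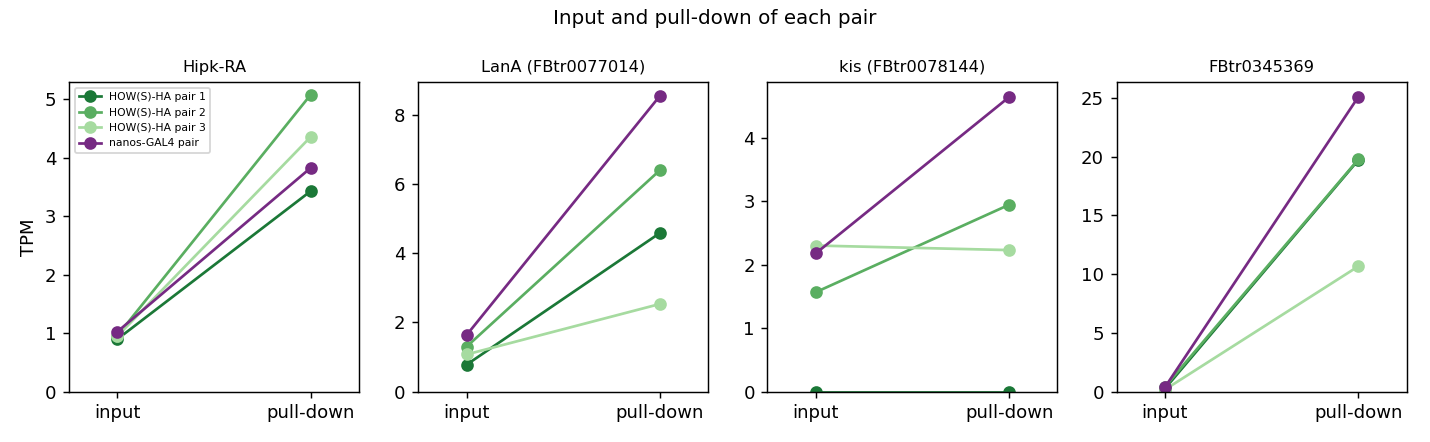
Input and pull-down levels in TPM, pair by pair, for Hipk-RA, the LanA transcript, the kis transcript and FBtr0345369, with 1 line per pair and a linear axis of its own for each transcript. The lines rise in all 4 pairs for Hipk-RA, LanA and FBtr0345369, and kis is at 0 in both libraries of HOW(S)-HA pair 1 and nearly level in pair 3.

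The remaining members are known by number only, and 4 of them at the ends of the range were singled out after their values had been seen. Among members with 10 or more reads in all libraries, FBtr0345387 and FBtr0345369 had the highest mean HOW(S)-HA ratios. FBtr0345387, of 10443 nucleotides, was at 4.40, 1.35 and 1.60 TPM in the 3 inputs of HOW(S)-HA and at 116, 219 and 154 TPM in the pull-downs. With nanos-GAL4 it went from 1.78 to 285 TPM, the highest of the 4 pull-downs, and the input of pair 1 was the highest input. Its log2(fold change) in the HOW(S)-HA pairs was 5.58 ± 0.920 (SE, n = 3 pairs; edgeR adjusted p = 0.111). FBtr0345369, of 12510 nucleotides, was at 0.252, 0.414 and 0.172 TPM in the 3 inputs of HOW(S)-HA and at 19.7, 19.8 and 10.7 TPM in the pull-downs. With nanos-GAL4 it was at 0.368 and 25.1 TPM. Its log2(fold change) was 5.23 ± 0.224 (SE, n = 3 pairs; edgeR adjusted p = 0.0763), with a difference between lines of -0.16 ± 0.379 (SE; adjusted p = 1). DESeq2, limma-voom and edgeR without the block called both transcripts higher, with adjusted p of 1.66e-09, 0.0233 and 0.0200 for FBtr0345387 and between 1.49e-141 and 0.01002 for FBtr0345369, which edgeR also called on scaledTPM counts (adjusted p = 0.0477). Both transcripts thus had pull-downs far above their inputs in either line.

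At the other end, and with no such minimum of reads, FBtr0303205 and FBtr0340304 had the lowest mean ratios. Both passed the read filter through the HOW(S)-HA inputs alone, so high reads in those inputs were a condition of their selection. FBtr0303205, of 11195 nucleotides, had 528, 598 and 596 estimated reads in the inputs of HOW(S)-HA and none in the 3 pull-downs. Against a floor of 3 reads per library, the mean pull-down was at least 284-fold lower. FBtr0340304, of 16609 nucleotides, had 135, 290 and 1117 reads in the inputs and 0.002 in each pull-down, which is at least 206-fold lower against the same floor. That bound rests in part on pair 3, and without it FBtr0340304 was at least 106-fold lower. DESeq2 and edgeR without the block called both transcripts lower, and limma-voom did not. Since both were picked by these same reads, the folds and calls describe them and are not support for a loss in the pull-down. Both were also at or near 0 reads in the nanos-GAL4 input and pull-down, so that line gives no ratio for them. In total, 4 members had under 1 read in all 3 HOW(S)-HA pull-downs, 3 of them also in the nanos-GAL4 pull-down, and 1 member had under 1 read in all 3 HOW(S)-HA inputs. The same counts over all tested transcripts were not made, so these are not read as a trait of very long transcripts.

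Length and abundance at their extremes gave the same direction for most members. The longest member, of 50529 nucleotides, was at 0.143, 0.267 and 0.270 TPM in the 3 inputs of HOW(S)-HA and at 4.87, 1.94 and 1.07 TPM in the pull-downs, and at 0.343 and 2.60 TPM with nanos-GAL4. The most abundant member was at 139, 184 and 102 TPM in the HOW(S)-HA pull-downs and at 292 TPM in that of nanos-GAL4, with log2 ratios of 2.51, 2.17, 1.23 and 2.31. Of the 10 longest members 8 were above the median of all transcripts in all 4 pairs, as were 8 of the 10 most abundant. Of the 25 members with whole-number reads, which were not divided among isoforms, 22 were above the median in all 4 pairs, against 24.9% of all tested transcripts. The share among other transcripts with whole-number reads was not counted. A log2 ratio above 0 in every pair was found for 24. Such ratios were common, as the lower quartiles of the other transcripts were 0.66, 0.27, -0.02 and 0.26 in HOW(S)-HA pairs 1, 2 and 3 and nanos-GAL4. Within these 25 the highest ratios belonged to a 13882-nucleotide transcript at 1.00, 1.54 and 2.36 TPM in the 3 inputs of HOW(S)-HA and 42.2, 53.4 and 41.2 TPM in the pull-downs. With nanos-GAL4 it was at 2.23 and 53.6 TPM. The lowest belonged to a 10901-nucleotide transcript, with log2 ratios of 1.10, 0.60, -0.05 and 0.79.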

How the data were processed

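From rRNA-depleted total RNA the authors made stranded libraries and sequenced single ends, removed adaptors and then rRNA and tRNA sequence, and estimated transcript levels with Salmon 0.14.2 against FlyBase transcripts. They deposited, per library, estimated counts of reads, which are not normalised, and TPM values, which are scaled to the same total in every library, with transcript lengths. Effective lengths were the same in all libraries, so they cancel in ratios.

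The members and lists were chosen with earlier results of these data known. Ratios used a pseudocount of 0.01 TPM, and they are relative to each library's total. Estimated counts were rounded and tested with edgeR 4.0.16 in R 4.3.3 (quasi-likelihood F-test, legacy form, TMM over all 8 libraries). The authors' methods use scaledTPM counts, which give a long transcript far fewer counts than its reads, so these were an alternative, as were DESeq2 1.42.0 and limma 3.58.1. Input and pull-down of a number come from the same lysate by the methods, so the pair was kept as a block, although their deviations correlated at only -0.11, -0.05 and -0.04 across transcripts. No 2 libraries of a kind were repeats (chi-square per degree of freedom of 18.5 or more). On simulated counts for the 12524 transcripts, the HOW(S)-HA test called 67 of 100 transcripts raised 4-fold and 40 of 100 lowered to 0.25-fold, with 1 and 0 false calls. The interaction test called 12 and 5 of 100. Power was thus limited in the simulation, above all for the interaction. The simulated counts had the same spread for transcripts of like level and no differences between pairs. The changed transcripts were drawn at random from all those tested. The simulation therefore does not measure power for very long transcripts in the real libraries. Read estimates above 5e-04 from a whole number were called fractional.

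Members named in the text were to be those the study names by isoform and those at the ends of level, length and ratio. Names came from the study for Hipk-RA and from RefSeq synonyms for LanA and kis, and the other transcripts are not paired with names here, so gene lists by function were not applied. No sequence is shown, since none was used here.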

Additional observations from a re-analysis of the deposited data

How the results depend on the processing

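Very long transcripts kept a higher median ratio than the others in all 4 pairs under every alternative run, and the mean difference of the HOW(S)-HA pairs was between 0.97 and 1.38 when 1 replicate was left out. A pseudocount of 0.5 TPM, which is close to the members' own level, lowered the difference to 0.72, 0.61 and 0.48 in pairs 1, 2 and 3 and 0.73 with nanos-GAL4. With no read filter it was 1.09, 0.86, 0.55 and 0.83, and in pair 1 it was 1.19 with a length limit of 8000. The median input level was 0.532 TPM for members and 3.66 for the others with a filter of 50 reads, 0.940 and 8.53 with a filter of 200, and 1.91 and 12.9 as depth-scaled reads per kb of full length, a scale whose totals differ from those of TPM. Adjusted calls among members were 0 with edgeR (0% of all transcripts). With DESeq2 they rose to 95 higher and 4 lower, against 5.97% and 2.56% of all transcripts. With limma-voom they rose to 64 and 1, against 3.77% and 0.591%. With no replicate block they rose to 62 and 2, against 3.45% and 0.679%. With scaledTPM counts they rose to 4 higher, against 0.391%, but were 0 with scaledTPM counts and filterByExpr. For the difference between lines the calls rose to 3 higher and 3 lower with DESeq2 (1.43% each), against 0.846% and 0.759%. With no replicate block they rose to 1 higher (0.476%), against 0.0878%. The cause was not tested. Leaving out a replicate gave 0 adjusted calls in each case. At an unadjusted p under 0.05 by edgeR, 87, 63 and 92 members were higher without replicates 1, 2 and 3, against 84. The counts over all 12524 transcripts moved in the same direction, with 701, 506 and 775, against 645. Below that p and lower in the pull-down were 9 members without replicate 1, against 4, where the share over all transcripts went from 1.88% to 2.18%. Without replicate 1 the interaction had 12 members in each direction, against 3.13% and 2.69% of all transcripts. Without replicate 3 it had 7 members in each direction, of 135 and 133 transcripts in all. The alternatives by whole reads, by 10 or more reads, by a floor of 3 reads and of scaledTPM with filterByExpr were chosen after seeing the data. With 1 replicate left out, the log2(fold change) of kis ranged from -0.32 without replicate 2 to 0.22 without replicate 3. Each of these 2 values rests on 1 pair, since the kis transcript was missing from pair 1. The difference between lines of FBtr0345369 ranged from -0.38 to 0.015, turning positive without replicate 2. A count of 1 transcript per gene was not run, since no table of genes was used. Low reads limit single members, as 54 had under 10 reads in some of the 8 libraries.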

Other observations

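Of the 368 transcripts of 10 kb or more below the read filter, 108 (29.3%) had a mean of 100 or more estimated reads in the 4 pull-downs. Of the 17178 shorter transcripts below the filter this held for 2105 (12.3%). Another 51 of the long ones were at 0 reads in all 8 libraries. None of the 368 is in the counts of very long transcripts above, since their input reads were under the filter.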
